A study of Mus musculus with 6 samples.

Results

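The genes described here are 10 transcription factor genes of embryonic mesenchyme: the basic helix-loop-helix (bHLH) genes Scx, Tcf15, Tcf21, Msc, Twist1, Twist2, Hand1 and Hand2, and the paired-related homeobox genes Prrx1 and Prrx2. Every non-control probe whose name in the array files equals one of these symbols was taken, which gave 16 probes for 10 genes, of 41174 probes and 27962 gene names in all. The set was chosen by the large log2 ratios of Scx and Tcf21 between the drugs on these arrays, so the ratios of the 10 genes are given as a description. Their calls in the fit over all genes are listed below, also under other processing, and are not evidence about the set.

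RNA came from kidneys dissected from CD1 mouse embryos at E13.5 and cultured on filters. One kidney of a pair was exposed for 6 h to Scriptaid at 2.0 µg/ml, an inhibitor of histone deacetylases (HDACs), and the other for 6 h to Nullscript at 2.0 µg/ml, a related compound used as its inactive control. The labels number 3 biological replicates, each hybridised on 2 two-colour arrays with the dyes exchanged, so 3 of the 6 arrays carry Scriptaid RNA in Cy5 and 3 carry it in Cy3. The labels do not say how many embryos or litters stand behind a replicate, and whole kidney rudiments hold several cell types. In such bulk RNA, fewer cells of a type and less RNA per cell cannot be told apart.

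Factors of the bHLH class that acts in restricted tissues bind the E-box, a short DNA motif, mostly as heterodimers with the widely expressed E proteins. Id proteins hold E proteins in pairs that cannot bind DNA. Several of the mesenchymal bHLH factors come as related pairs with different tissues of action: Scx marks tendon progenitors and Tcf15 (paraxis) acts in somites, while Tcf21 is made in kidney mesenchyme and podocytes and is needed for kidney development, and Msc (musculin) is known as a repressor in muscle precursors. Prrx1 and Prrx2 carry a paired-type homeodomain and act in limb and craniofacial mesenchyme.

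Proximal promoters from RefSeq (GRCm38.p6), 250 bases before to 50 bases after the gene start, were matched by symbol for 6 of the 10 genes: Tcf21, Twist1, Twist2, Hand2, Prrx1 and Prrx2. Scx, Tcf15, Msc and Hand1 are not among the entries used. A set of 4 is printed 5′ to 3′ on the gene's strand: the 3 promoters of genes with higher ratios (Tcf21, Prrx1 and Twist1) and that of Prrx2, the relative of Prrx1. Capitals mark CpG dinucleotides.
Tcf21 (chr10:22820094-22820393, minus strand): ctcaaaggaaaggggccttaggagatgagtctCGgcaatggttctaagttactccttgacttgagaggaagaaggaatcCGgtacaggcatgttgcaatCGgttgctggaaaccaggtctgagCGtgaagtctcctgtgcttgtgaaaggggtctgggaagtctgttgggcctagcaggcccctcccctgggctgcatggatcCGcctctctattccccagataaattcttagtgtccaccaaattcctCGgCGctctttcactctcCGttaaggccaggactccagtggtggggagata
Prrx1 (chr1:163313601-163313900, minus strand): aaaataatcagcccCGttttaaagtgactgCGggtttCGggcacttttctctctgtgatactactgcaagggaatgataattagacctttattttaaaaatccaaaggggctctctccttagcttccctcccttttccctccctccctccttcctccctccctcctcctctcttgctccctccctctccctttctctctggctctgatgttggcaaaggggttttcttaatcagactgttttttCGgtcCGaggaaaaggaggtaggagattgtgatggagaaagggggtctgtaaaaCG
Twist1 (chr12:33957421-33957720, plus strand): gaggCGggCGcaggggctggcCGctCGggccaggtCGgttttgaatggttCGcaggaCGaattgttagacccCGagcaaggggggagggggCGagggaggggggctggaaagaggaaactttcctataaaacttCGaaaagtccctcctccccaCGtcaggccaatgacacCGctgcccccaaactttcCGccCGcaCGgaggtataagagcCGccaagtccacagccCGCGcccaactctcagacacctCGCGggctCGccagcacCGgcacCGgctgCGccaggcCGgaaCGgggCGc
Prrx2 (chr2:30845117-30845416, plus strand): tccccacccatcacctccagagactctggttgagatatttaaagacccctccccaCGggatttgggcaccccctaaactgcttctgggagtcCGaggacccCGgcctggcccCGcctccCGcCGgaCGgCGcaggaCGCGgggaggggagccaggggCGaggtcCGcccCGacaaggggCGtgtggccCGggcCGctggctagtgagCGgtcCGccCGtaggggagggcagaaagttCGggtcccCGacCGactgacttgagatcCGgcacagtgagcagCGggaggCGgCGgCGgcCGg

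The printed promoters differed in CpG content. The Tcf21 promoter held 8 CpG and that of Prrx1 held 6, close to the median of 7 over 32851 promoters of the same length. The promoters of Twist1, Prrx2 and Twist2 held 27, 28 and 25, and 84.5%, 85.8% and 81.6% of all promoters held fewer. The Hand2 promoter held 17. The E-box CANNTG, which reads the same on both strands, was found in 1 of the 6 promoters, that of Hand2, where it occurred 2 times, against 72.3% of all promoters with at least 1. TATAAA, searched on both strands, was found in 1 of the 6, that of Twist1, against 13.6% of all promoters. CCAAT, searched on both strands, was found in 3 of the 6, those of Twist1, Twist2 and Hand2, against 37.4% of all promoters. These are letter matches within 300 bases and describe the sequence only.

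The direction of every ratio follows the dye and source fields of the labels, and it is not settled. Genes known from other cells to rise with HDAC inhibitors lay on the opposite side: all 5 listed passed the test as lower in the channel labelled Scriptaid, with a median log2 ratio (labelled Scriptaid over labelled Nullscript) of -1.01, and H1f2, a linker histone, at -1.72 ± 0.06, Gsn, the actin-severing gelsolin, at -1.04 ± 0.14, and Txnip, a thioredoxin inhibitor, at -1.01 ± 0.08 (SD, n = 3; limma adjusted p = 0.000111, 0.000242 and 0.000152). All 4 genes listed as falling with HDAC inhibitors were higher in the channel labelled Scriptaid, with a median of 1.22. Among them were Ccnd1 (cyclin D1) at 1.90 ± 0.19, Myc at 1.71 ± 0.28 and Tyms (thymidylate synthase) at 0.73 ± 0.03 (limma adjusted p = 0.000145, 0.000325 and 0.000150). Other probes gave 0.30 to 1.76 for Myc, -0.02 to 0.74 for Tyms and -0.80 for Txnip. Both lists were chosen with earlier results of these data known, so their counts do not settle the direction. Channels are therefore named by their labels throughout. If the 2 names were exchanged, the sign of every ratio between the drugs below would turn and every size, SD and overlap would stay. The arrays with Scriptaid in Cy5 and those with Scriptaid in Cy3 would trade places. Values below that compare the dyes would keep their sign.

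Of the 10 genes, 5 were called higher in the channel labelled Scriptaid (Scx, Tcf21, Prrx1, Twist1 and Msc), Tcf15 alone was called higher with the Nullscript label, and Twist2, Hand1, Hand2 and Prrx2 were not called, at a limma adjusted p under 0.05 over 26495 genes. Over all genes 46.2% were called, 22.5% higher with the Scriptaid label and 23.7% higher with the Nullscript label. Since this contrast chose the set, nothing is read from its counts. Msc was not called without any 1 of the replicates, and Prrx2 was called lower in the channel labelled Scriptaid without replicate 1. Channel intensities of the 6 arrays did not overlap for 4 of the 10 genes (Scx, Tcf21, Prrx1 and Tcf15), against 22.8% of 26432 genes. The median log2 ratio was 0.06 over the 10 genes and -0.01 over all genes, and the median size without sign was 0.23 for the 10 and 0.10 for all genes.

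**Figure D1:**
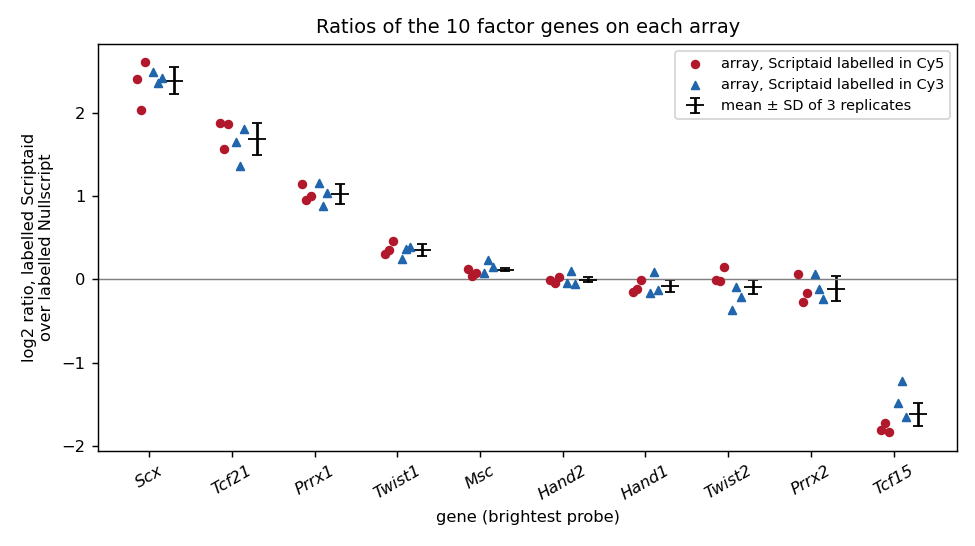
Log2 ratio of labelled Scriptaid over labelled Nullscript (vertical axis) for the brightest probe of each of the 10 genes (horizontal axis). Red circles are the 3 arrays with Scriptaid in Cy5, blue triangles the 3 arrays with Scriptaid in Cy3, and black bars the mean ± SD of 3 replicates. Scx, Tcf21 and Prrx1 lie above 0 on every array and Tcf15 lies below 0 on every array.

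Scx, the tendon progenitor factor, had the largest ratio of the set. Its normalised log2 intensity was 12.20 to 12.55 (median 12.28) over the 6 arrays in the channel labelled Scriptaid, against 9.63 to 10.29 (median 9.88) in the channel labelled Nullscript. The channels did not overlap, and the channel labelled Scriptaid was the brighter on 6 of 6 arrays. The replicate log2 ratios were 2.45, 2.20 and 2.51, with a mean of 2.38 ± 0.17 (SD, n = 3), which is 5.22-fold. Ordered by ratio, Scx stood at place 2 of 26495 genes from the side of labelled Scriptaid.

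Tcf15, the somite factor most closely related to Scx, had the opposite sign. Its log2 intensity was 10.26 to 10.64 (median 10.52) in the channel labelled Scriptaid, against 11.86 to 12.32 (median 12.13) in the channel labelled Nullscript. The channels did not overlap, and the channel labelled Scriptaid was the dimmer on 6 of 6 arrays. Over the replicates, log2 ratios were -1.64, -1.47 and -1.74, with a mean of -1.62 ± 0.14 (SD, n = 3), which is 3.07-fold in favour of the channel labelled Nullscript. It stood at place 64 of 26495 from the side of labelled Nullscript. Within replicates the log2 ratio of Scx exceeded that of Tcf15 by 4.09, 3.67 and 4.25, a mean of 4.00 ± 0.30.

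Tcf21, the kidney mesenchyme and podocyte factor, had a log2 intensity of 12.75 to 12.99 (median 12.91) in the channel labelled Scriptaid, against 11.00 to 11.43 (median 11.16) in the channel labelled Nullscript. The channels did not overlap and their order was the same on 6 of 6 arrays. The replicate log2 ratios were 1.76, 1.47 and 1.84, a mean of 1.69 ± 0.20 (SD, n = 3) or 3.22-fold, at place 44 from the side of labelled Scriptaid. As for Scx, replicate 2 had the smallest ratio of the 3.

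Msc, the muscle-precursor repressor related to Tcf21, was dim, though its probe was well above background on all 6 arrays for both drugs. Its log2 intensity was 6.52 to 6.96 (median 6.70) in the channel labelled Scriptaid, against 6.35 to 6.81 (median 6.60) in the channel labelled Nullscript. The channels overlapped, although the channel labelled Scriptaid was the brighter on each of the 6 arrays. Over the replicates, log2 ratios were 0.10, 0.13 and 0.11, a mean of 0.12 ± 0.02 (SD, n = 3), and the direction turned with the scaling: the mean was 0.30 ± 0.05 by the processed signals of the scanner software and -0.08 ± 0.09 with the array median in place of loess. Within replicates the log2 ratio of Tcf21 exceeded that of Msc by 1.57 ± 0.21.

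**Figure D2:**
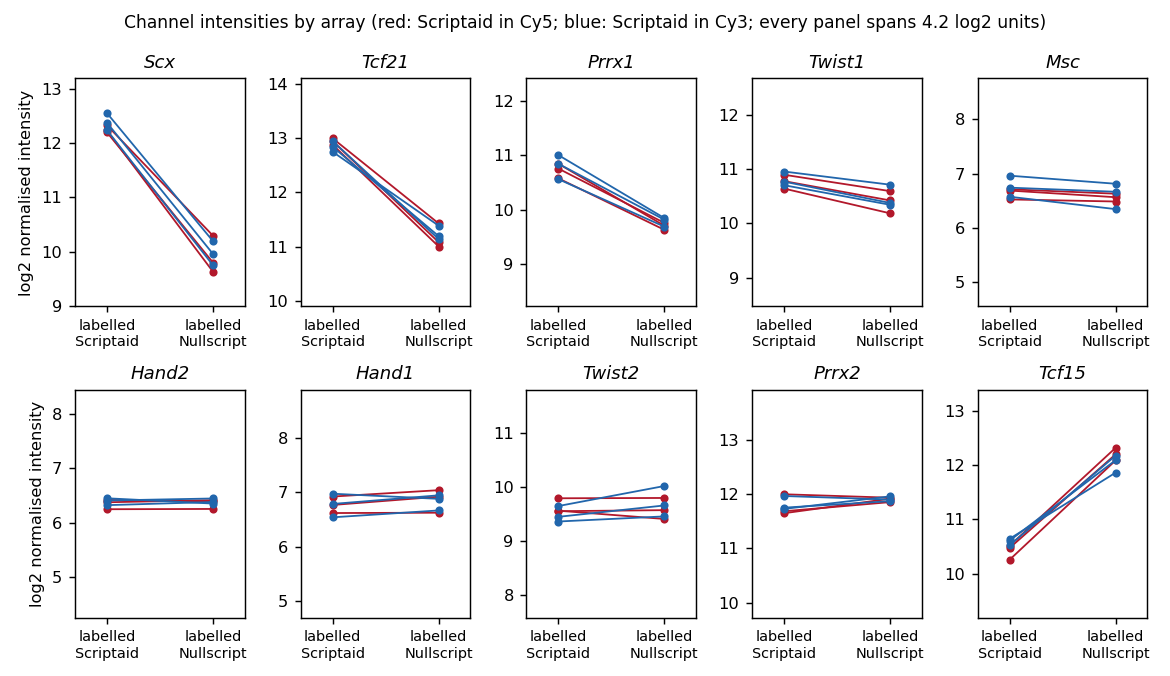
Normalised log2 intensity (vertical axis) of the brightest probe of each of the 10 genes in the channel labelled Scriptaid (left of each panel) and the channel labelled Nullscript (right). Each line joins the 2 channels of an array, red with Scriptaid in Cy5 and blue with Scriptaid in Cy3, and every panel spans the same number of log2 units. Scx, Tcf21 and Prrx1 lines all run down to the right, Tcf15 lines all run up, and the other 6 genes overlap between channels.

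Twist1, a factor of cranial and limb mesenchyme that also acts in epithelial-mesenchymal transition, had a smaller ratio. Its log2 intensity was 10.64 to 10.96 (median 10.78) in the channel labelled Scriptaid, against 10.19 to 10.71 (median 10.40) in the channel labelled Nullscript. The channel labelled Scriptaid was the brighter on 6 of 6 arrays, while the ranges over arrays overlapped. The replicate log2 ratios were 0.27, 0.36 and 0.42, a mean of 0.35 ± 0.08 (SD, n = 3) or 1.28-fold.

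Twist2 (Dermo1), its relative known from dermis, had a log2 intensity of 9.36 to 9.79 (median 9.56) in the channel labelled Scriptaid, against 9.41 to 10.02 (median 9.61) in the channel labelled Nullscript. The channels overlapped. Over the replicates, log2 ratios were -0.19, -0.06 and -0.03, a mean of -0.09 ± 0.08 (SD, n = 3), negative on 5 of 6 arrays. The mean was 0.04 on arrays with Scriptaid in Cy5, where 1 array at 0.15 was positive, and -0.22 on arrays with Scriptaid in Cy3. The log2 ratio of Twist1 exceeded that of Twist2 by 0.46, 0.41 and 0.45 in the 3 replicates, a mean of 0.44 ± 0.02, which was larger than the spread of either gene.

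The Hand genes, known for heart development and, for Hand2, for limb and sympathetic neurons, were at the dim end of the array. Hand1 had a log2 intensity of 6.54 to 6.98 (median 6.78) in the channel labelled Scriptaid, against 6.63 to 7.04 (median 6.90) in the channel labelled Nullscript. The channels overlapped, and the replicate log2 ratios were -0.16, -0.01 and -0.07, a mean of -0.08 ± 0.07 (SD, n = 3). The Hand1 probe was well above background on all 6 arrays for both drugs.

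Hand2 was measured by 2 probes. The brighter had a log2 intensity of 6.25 to 6.45 (median 6.39) in the channel labelled Scriptaid and the same rounded range and median in the channel labelled Nullscript. The channels overlapped. This probe was well above background on 5 of 6 arrays for Scriptaid and 4 of 6 for Nullscript, and its replicate log2 ratios were -0.02, 0.03 and -0.02, a mean of -0.00 ± 0.03 (SD, n = 3). The other Hand2 probe was above background on 2 arrays for Scriptaid and 1 for Nullscript, and was left out of the fit. With the array median in place of loess, Hand1 and Hand2 had means of -0.24 ± 0.14 and -0.25 ± 0.12, so neither gene has a ratio that holds its size across scalings.

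Prrx1, a factor of limb and craniofacial mesenchyme, was measured by 6 probes that did not give the same ratio. The brightest, one of 3 probes assigned to the transcript NM_011127, had a log2 intensity of 10.56 to 11.01 (median 10.80) in the channel labelled Scriptaid, against 9.63 to 9.85 (median 9.73) in the channel labelled Nullscript. The channels did not overlap. In the 3 replicates its log2 ratios were 1.15, 0.91 and 1.02, a mean of 1.03 ± 0.12 (SD, n = 3) or 2.04-fold, at place 412 of 26495 from the side of labelled Scriptaid.

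The other 2 Prrx1 probes of NM_011127 had larger ratios, with means of 1.28 ± 0.15 and 1.74 ± 0.18, and their channels did not overlap either. Within replicates, they exceeded the brightest probe by 0.25 ± 0.03 and 0.71 ± 0.06, so the 3 probes kept 1 order in all replicates. A probe of a second transcript, NM_175686, had a mean of 0.36 ± 0.12 and was well above background on 6 arrays for Scriptaid and 4 for Nullscript. By the processed signals of the scanner software, which add no offset to dim spots, this Prrx1 probe had a mean of 1.08 ± 0.47. The 2 probes named after cloned complementary DNAs, AK038736 and AK029347, both had a mean of 0.01 ± 0.03. The AK038736 probe was above background on all arrays for both drugs, and the AK029347 probe on 4 arrays for Scriptaid and 5 for Nullscript. Which parts of the gene these probes match was not analysed here.

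**Figure D3:**
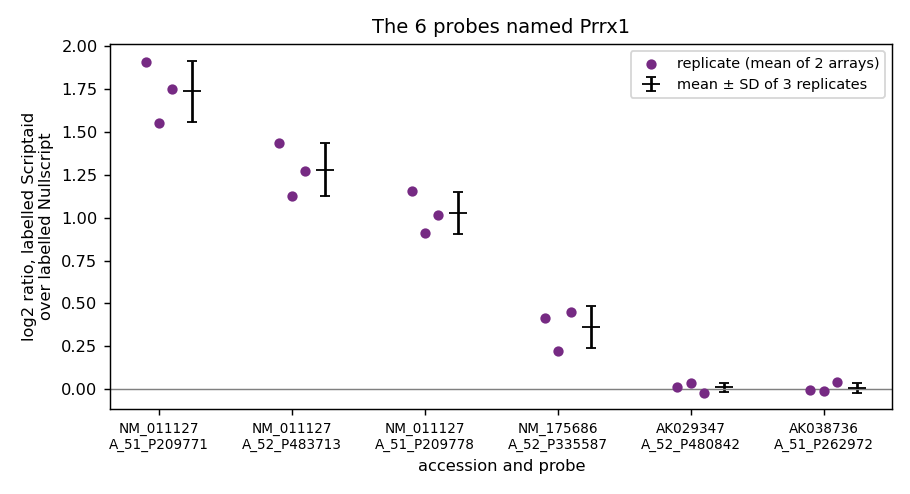
Log2 ratio of labelled Scriptaid over labelled Nullscript (vertical axis) for the 6 probes named Prrx1, with the accession and probe name given in the array files (horizontal axis). Purple points are replicates, each the mean of 2 arrays, and black bars the mean ± SD of 3 replicates. The 3 NM_011127 probes had means of 1.74, 1.28 and 1.03, the NM_175686 probe 0.36, and both complementary DNA probes 0.01.

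Prrx2, the relative of Prrx1, had a log2 intensity of 11.65 to 12.00 (median 11.74) in the channel labelled Scriptaid, against 11.85 to 11.96 (median 11.91) in the channel labelled Nullscript. The channels overlapped. The replicate log2 ratios were 0.06, -0.19 and -0.20, a mean of -0.11 ± 0.15 (SD, n = 3), so the replicates did not share a sign. The log2 ratio of the brightest Prrx1 probe exceeded that of Prrx2 by 1.09, 1.11 and 1.22, a mean of 1.14 ± 0.07. For the Hand genes, both dim, the log2 ratio of Hand1 minus that of Hand2 had a mean of -0.08 ± 0.05 (SD, n = 3).

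**Figure D4:**
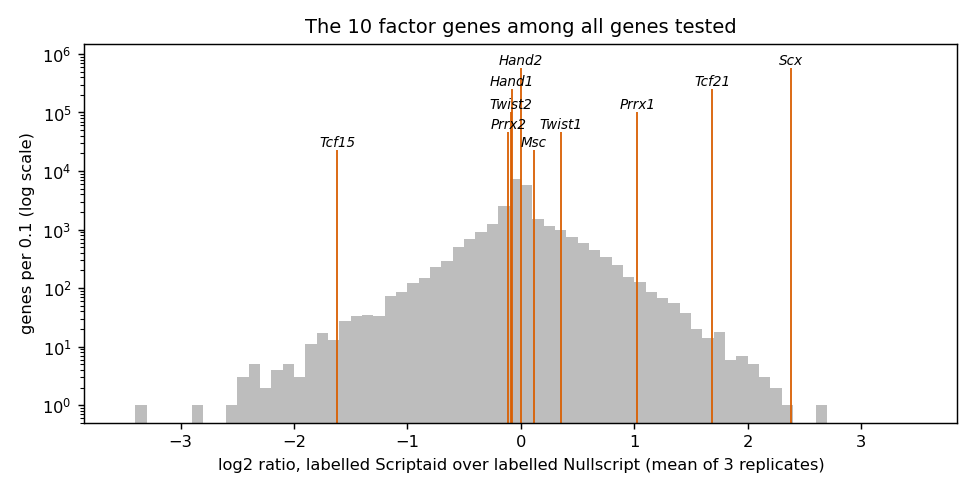
Distribution of the mean log2 ratio of labelled Scriptaid over labelled Nullscript (horizontal axis) over 26495 genes, counted in bins on a log vertical axis, with orange lines at the 10 genes. Scx (2.38) and Tcf21 (1.69) lie in the sparse right end, Tcf15 (-1.62) in the sparse left end, and Twist2, Hand1, Hand2 and Prrx2 near the centre.

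The dye effect was tested because it is a measure the choice of genes did not use. It is the mean log2 ratio of Cy5 over Cy3 that stays when the drug effect is taken out of the 6 arrays. None of the 10 genes passed (0 of 10; limma adjusted p, 26462 genes tested), and 2 had an unadjusted p under 0.05, against 4.26% of all genes passing and 21.2% with an unadjusted p under 0.05. The 2 were Tcf15, at -0.17 ± 0.05 (SE, n = 6 arrays; limma adjusted p = 0.126), and Twist2, at 0.13 ± 0.04 (adjusted p = 0.132). Tcf15 had a mean log2 ratio of -1.79 on arrays with Scriptaid in Cy5 and -1.45 on arrays with Scriptaid in Cy3, both of the same sign. Scx had 2.35 and 2.42, and Tcf21 had 1.77 and 1.61. For Scx, Tcf21 and Tcf15 the difference between dye orientations was smaller than the ratio itself.

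The partners of the bHLH factors were set beside them. Of 7 genes for E proteins and Id proteins, 5 were higher and 1 lower in the channel labelled Scriptaid and 1 did not pass, with a median log2 ratio of 0.36. The E protein genes Tcf3 and Tcf4 were higher, at 0.88 ± 0.14 and 0.53 ± 0.09, and Id1, an inhibitor of E proteins, was lower, at -0.47 ± 0.09 (SD, n = 3; limma adjusted p = 0.000374, 0.000595 and 0.000889). Id3 and Id4 were higher, at 0.39 ± 0.13 and 0.29 ± 0.07 (limma adjusted p = 0.00394 and 0.00253), and Id2 did not pass, so the Id genes did not share a direction. The third E protein gene, Tcf12, was higher, at 0.36 ± 0.14. Other probes gave 0.86 for Tcf3, 0.29 to 0.54 for Tcf4, -0.14 to 0.40 for Tcf12, -0.45 for Id1 and -0.05 for Id4. Of 18 other bHLH factors of the tissue-restricted class, 3 were higher and 4 lower in the channel labelled Scriptaid, with a median of -0.04. The higher genes were the blood factors Tal1, at 0.27 ± 0.06, and Lyl1, at 0.26 ± 0.12, and Atoh8, at 0.19 ± 0.12 (limma adjusted p = 0.00257, 0.0115 and 0.0399). The 4 lower genes were Myod1 (-0.16), Tal2 (-0.15), Mesp1 (-0.13) and Myog (-0.13). Atoh8 was at -0.05 on arrays with Scriptaid in Cy5 and 0.42 on arrays with Scriptaid in Cy3. Without replicate 3 the counts were 1 higher and 0 lower, and Atoh8, at 0.28 by the processed signals, missed the threshold without any 1 of the replicates (limma adjusted p = 0.066 to 0.0757).

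Of 21 other paired-type homeobox factors, relatives of Prrx1 and Prrx2, 2 were higher and 7 lower, with a median of -0.03. Uncx, known from somites and kidney, was at 0.82 ± 0.09, and Esx1, a placental factor, at -1.06 ± 0.29 (limma adjusted p = 0.000230 and 0.00140). Another probe of Uncx gave 0.33, and Esx1 was at -2.04 by the processed signals of the scanner software and -2.07 by the log ratios of the deposited table. Without replicate 3 the counts of this list were 1 higher and 4 lower.

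Genes that Scx and the EMT role of Twist1 point to were counted likewise. Of 15 tendon and fibrous matrix genes, 5 were higher, 3 lower and 7 did not pass, with a median of 0.04. Dcn (decorin), a matrix proteoglycan, was at 0.66 ± 0.20, while Mkx, a tendon homeobox factor, was at -0.67 ± 0.02 and Postn (periostin) at -0.42 ± 0.10 (limma adjusted p = 0.00210, 0.000160 and 0.00163). A second Postn probe gave -0.01, and 3 genes of the list were higher without replicate 1 and 2 without replicate 3, against 5. Of 11 genes of epithelial-mesenchymal transition, 6 were higher, 1 lower and 4 did not pass, with a median of 0.34. The list mixes mesenchymal and epithelial genes, so its counts and median give no direction for the transition. Of its epithelial genes, Cdh1 (E-cadherin) was the lower one, at -0.68 ± 0.06, Ocln (occludin) was higher, at 0.34 ± 0.17, and Epcam did not pass. Snai2 and Zeb1 were higher, at 0.75 ± 0.04 and 0.47 ± 0.14, while Snai1, Vim and Fn1 did not pass. A second Ocln probe gave 0.04. Cdh11, a mesenchymal cadherin, was at 1.72 ± 0.39, Zeb2, a repressor of epithelial genes, at 1.25 ± 0.25, and Cdh2 (N-cadherin) at 0.80 ± 0.22 (limma adjusted p = 0.000743, 0.000555 and 0.00145). Other probes gave 1.01 to 1.75 for Cdh11, 0.21 to 1.60 for Zeb2 and 0.03 to 0.10 for Cdh2, and without replicate 1 the list had 2 lower genes in place of 1. These counts stand beside 22.5% higher and 23.7% lower over all genes, whose median was -0.01.

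Markers of the kidney cells that express Tcf21 also differed between the channels, and their part in the ratios of the 10 genes was not tested. Of 17 stroma markers, 13 were higher and 1 lower in the channel labelled Scriptaid, with a median of 0.56. The log2 of their summed intensity was 17.41 to 17.63 in the channel labelled Scriptaid, against 17.00 to 17.28 in the channel labelled Nullscript. Nr2f1 and Nr2f2, nuclear receptors of stroma, were at 1.20 ± 0.36 and 1.01 ± 0.08, and Pdgfra at 0.86 ± 0.17 (limma adjusted p = 0.00182, 0.000147 and 0.000600). Other probes gave -0.09 to 0.92 for Nr2f2 and 0.12 for Pdgfra.

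Of 13 podocyte markers, 6 were higher, 1 lower and 6 did not pass, with a median of 0.10 and a log2 summed intensity of 15.94 to 16.12 in the channel labelled Scriptaid, against 15.86 to 16.03 in the channel labelled Nullscript. Wt1, the podocyte and progenitor factor, was at 0.97 ± 0.07, Ptpro, a podocyte phosphatase, at 0.78 ± 0.10, and Actn4 (alpha-actinin) at -0.90 ± 0.08 (limma adjusted p = 0.000145, 0.000268 and 0.000172). A second Ptpro probe gave -0.08.

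The epithelial and progenitor parts of the kidney were measured too. Of 9 nephron progenitor markers, 8 were higher and 1 lower, with a median of 0.41 and a log2 summed intensity of 15.15 to 15.41 in the channel labelled Scriptaid, against 14.12 to 14.32 in the channel labelled Nullscript. Eya1 was at 1.64 ± 0.18, Crym at 1.32 ± 0.13 and Meox1 at 1.20 ± 0.17 (limma adjusted p = 0.000166, 0.000158 and 0.000266). Second probes gave 0.48 for Eya1 and 0.79 for Meox1. The single lower call of this list was absent without replicate 1 and without replicate 3. Of 8 ureteric bud markers, 5 were higher and 0 lower, with a median of 0.30 and a log2 summed intensity of 15.50 to 15.68 in the channel labelled Scriptaid, against 15.01 to 15.22 in the channel labelled Nullscript. Emx2 was at 0.98 ± 0.12, Gata3 at 0.78 ± 0.10 and Cdh16 at 0.53 ± 0.02 (limma adjusted p = 0.000220, 0.000286 and 0.000228). A second Emx2 probe gave 0.78. All 9 progenitor, 8 bud and 17 stroma markers were well above background on every array for both drugs, and the same held for the muscle, sympathetic, and adrenal and gonad markers below, so detection alone does not set the tissue apart.

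Scx, Tcf15, Msc, Hand1 and Hand2 are better known from tissues next to the kidney or outside it, and markers of these were counted. Of 10 skeletal muscle markers, 1 was higher and 3 were lower, with a median of -0.03, and the log2 summed intensity was 11.63 to 11.82 in the channel labelled Scriptaid, against 11.82 to 12.06 in the channel labelled Nullscript. Mylpf, a fast myosin light chain, was at -1.08 ± 0.06, Tnnc2 (fast troponin C) at -0.15 ± 0.03 and Myh3 (embryonic myosin) at -0.14 ± 0.07 (limma adjusted p = 0.000134, 0.0119 and 0.0303). A second Myh3 probe gave -0.03. Acta1 (skeletal actin) was the higher gene, at 0.11 ± 0.04 (limma adjusted p = 0.0354), and 6 markers did not pass. Over all genes 22.5% were higher and 23.7% lower, so nothing about muscle is read from these counts. Without replicate 3 the counts of the muscle list were 0 higher and 1 lower, and without replicate 2 none was higher.

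Of 10 sympathetic neuron and neural crest markers, 1 was higher and 3 were lower, with a median of -0.03 and a log2 summed intensity of 12.97 to 13.15 in the channel labelled Scriptaid, against 13.05 to 13.16 in the channel labelled Nullscript. Prph (peripherin) was at -0.57 ± 0.11, Ddc (dopa decarboxylase) at 0.30 ± 0.12 and Phox2a, an autonomic neuron factor, at -0.16 ± 0.08 (limma adjusted p = 0.000746, 0.00838 and 0.0284). Prph was at -1.20 by the processed signals and -1.23 by the deposited ratios, and a second Ddc probe gave 0.07. Without replicate 3 the counts were 0 higher and 1 lower, and without replicate 1 there was 1 lower. Of 9 adrenal and gonad markers, 1 was higher and 1 lower, with a median of -0.01 and a log2 summed intensity of 11.26 to 11.46 in the channel labelled Scriptaid, against 11.20 to 11.44 in the channel labelled Nullscript. Inha (inhibin alpha) was at 0.34 ± 0.14 and Star, the steroidogenic cholesterol carrier, at -0.17 ± 0.02 (limma adjusted p = 0.00657 and 0.00701). Other probes gave -0.02 for Inha and -0.54 for Star, and Star missed the threshold without replicate 3 (adjusted p = 0.0691). The 10 muscle, 10 sympathetic and 9 adrenal and gonad genes tested were all well above background on every array for both drugs. Between 91.5% and 96.5% of all non-control spots per channel were so too, and thus this does not show that these tissues were present.

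**Figure D5:**
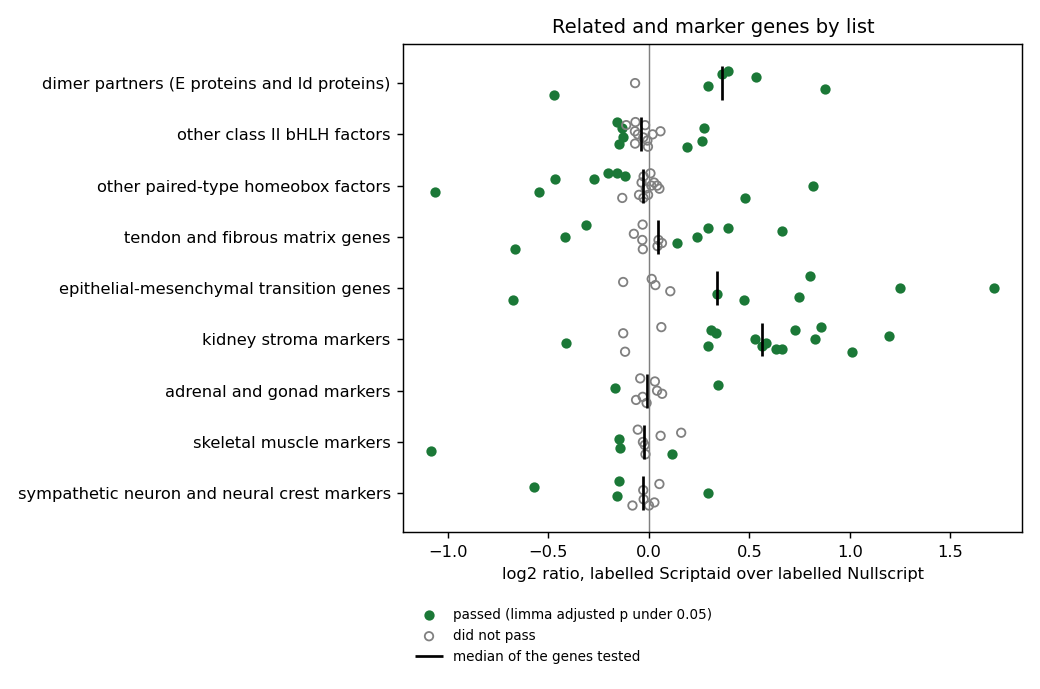
Log2 ratio of labelled Scriptaid over labelled Nullscript (horizontal axis) for the genes of 9 lists (rows). Filled green points passed at a limma adjusted p under 0.05, open grey points did not, and black lines are medians of the genes tested. The stroma list has the highest median (0.56), and the adrenal, muscle and sympathetic lists have medians between -0.03 and -0.01.

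The genes whose ratios over the 6 arrays lay nearest to those of Scx and Tcf21 were found by Euclidean distance on the log2 scale among 18003 named genes. For Scx these were Tril, with a mean log2 ratio of 2.21 and a distance of 0.65, Bend3 (2.19, distance 0.67) and Esm1, an endothelial proteoglycan (2.22, distance 0.69). For Tcf21 they were the protease gene Pappa (1.71, distance 0.24), the chromatin remodeller Chd3 (1.71, distance 0.25) and Lum, the matrix proteoglycan lumican (1.71, distance 0.32). As means over all probes of the gene, Tril was at 1.21 and Bend3 at 1.10, so the nearness of these to Scx rests on their brightest probe. By the same rule Pappa was at 1.45 and Chd3 at 1.41, so their nearness to Tcf21 also depends on the probe. Esm1 and Lum kept their values of 2.22 and 1.71.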

How the data were processed

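The authors deposited scanner output of Agilent Feature Extraction 9.1.3.1 (per the file headers), with the intensity of spots and of their background. Their series table, also deposited, holds log10 ratios that equal the scanner log10 ratios turned to labelled Scriptaid over labelled Nullscript (differences of at most 4.82e-06; column medians -0.0112 to -0.00298). The series text mentions a dye swap on some of 4 arrays; the labels of 6 arrays were used. Between 91.5% and 96.5% of 43379 non-control spots per channel were well above background, and 346 to 691 spots per array were saturated. Precision is limited by 3 replicates.

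Background correction of the mean intensities by normexp (offset 50) and loess normalisation were done with limma 3.58.1 under R 4.3.3; control spots had weight 0 and outlier-marked spots were dropped. The 2 arrays of a replicate were averaged. A probe was kept if 3 or more of the 6 arrays had it well above background for a drug (39407 of 41174 probes), the brightest standing for a gene, and lmFit and eBayes with Benjamini-Hochberg adjustment ran over 26495 genes. Names came from the accession for 22951 probes, from a current or older symbol for 6659 and 3109, and from the array file for 8455. Channel intensities were taken after loess and Aquantile. The fit was checked on simulated data with independent noise on each array and a dye curve shared by all genes. The simulation held no dye effect of single genes and no correlation within replicates, so the check does not cover these.

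Replicate numbers pair the arrays, since the labels give both dye-exchanged arrays of a number as the same biological replicate. Their deviations from the group means correlated at 0.61, 0.13 and 0.01. Log2 ratios correlated at 0.75 to 0.86 between the dye-exchanged arrays of a replicate. Between different replicates they correlated at 0.87 to 0.94 with the same dyes and 0.73 to 0.83 with dyes exchanged. Arrays thus resembled each other more by dye orientation than by replicate. With the replicate as a block, the fitted correlation within replicates was -0.10. Replicates 1 and 2 lie on slide 1 and replicate 3 on slide 2, so the replicate values are also within-slide values.

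The 10 genes and all lists (HDAC inhibitor response, E and Id proteins, other bHLH and paired-type factors, tendon, epithelial-mesenchymal transition, stroma, podocyte, nephron progenitor, ureteric bud, muscle, sympathetic, and adrenal and gonad) were chosen with earlier results of these data known. Named beside the 10 are, per list, up to 3 genes that passed with the largest log2 ratio in size, and 3 nearest genes each for Scx and Tcf21; 1 gene that this rule names is not reported here. Alternatives were other background correction, scaling, filters, probe rules, slide or replicate blocks, single dye orientations and leaving out each replicate.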

Additional observations from a re-analysis of the deposited data

Results flagged for a closer look

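These values were picked out because the 3 arrays with Scriptaid in Cy5 and the 3 arrays with Scriptaid in Cy3 gave different log2 ratios. The Prrx1 probe of AK029347 was negative on every array with Scriptaid in Cy5 (mean -0.03) and positive on every array with Scriptaid in Cy3 (mean 0.06), a difference of -0.0896; for this probe the difference was not tested.

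Among the listed genes, the difference passed the dye test for 6 (limma). Atoh8 had -0.05 with Scriptaid in Cy5 and 0.42 with Scriptaid in Cy3, a difference of -0.47 (adjusted p = 0.0396). Uncx had 1.00 and 0.63, a difference of 0.37 (adjusted p = 0.0468). Mkx had -0.53 and -0.80, a difference of 0.28 (adjusted p = 0.0294). Nr2f2 had 1.22 and 0.80, a difference of 0.41 (adjusted p = 0.0351). Wt1 had 1.15 and 0.79, a difference of 0.36 (adjusted p = 0.0478), and Crym had 1.57 and 1.07, a difference of 0.50 (adjusted p = 0.0496). Apart from Atoh8, both orientations gave these genes the same sign.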

How the results depend on the processing

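Scx, Tcf21, Twist1, Prrx1 and Tcf15 kept their call and side under all 14 alternatives. On the log2 scale Scx stayed between 2.32 and 2.48, Tcf21 between 1.61 and 1.80, Twist1 between 0.32 and 0.42 and Tcf15 between -1.79 and -1.45. Prrx1 stayed between 0.74 and 1.08, the lowest being the mean over all its probes. Msc turned to -0.0837 with the array median in place of loess, and under that setting 3 of the 10 genes were called on the Nullscript side (Tcf15, Hand1 and Hand2), against 1. Msc was also not called with the slide as a block or with either dye orientation alone, and Twist2 was called lower with Scriptaid in Cy3 alone. Twist2 was positive under 1 alternative. Atoh8 turned to -0.0451 on arrays with Scriptaid in Cy5 alone (limma adjusted p = 0.587). The cause of these changes was not tested. With the 6 arrays fitted with a dye term and the replicate block, 12827 genes, 6 of the 10 genes and 93 list genes were called, and 1421 genes for the dye effect; none of these counts moved by over 1.5 times. Genes called for a dye effect were 1126, but 542 with saturated spots left out and 224 to 1972 without 1 replicate (224 without replicate 3, 290 without replicate 1, 1972 without replicate 2). Without 1 replicate, 8323 to 11150 genes, 5 to 6 of the 10 genes and 66 to 86 list genes were called; without replicate 3, 4000 genes were called with the higher level under the Nullscript label, against 6290. The called genes Atoh8, Lyl1, Tal1, Star, Myh3, Tnnc2, Ddc and Phox2a missed the threshold under at least 1 alternative. The median of all genes stayed between -0.05 and 0.01. Signal over background limits Msc, Hand1, Hand2 and the dimmer Prrx1 probes.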
